A study of Saccharomyces cerevisiae with 18 samples.

Results

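RNA levels were compared directly between 2 histone-modification mutants of the budding yeast Saccharomyces cerevisiae at day 1 of chronological aging: bre1Δ, a BY4742 strain without BRE1, and set2Δ, a BY4742 strain without SET2. All 3 bre1Δ libraries of day 1 were set against all 3 set2Δ libraries of day 1, which are 6 of the 18 libraries of the series, and the rule for choosing them used only the labels. The other libraries are WT at day 1 and all 3 strains at day 4. WT values, and log2 fold changes over WT where given, stand beside the results and do not enter the contrast between the deletions. The day 4 libraries served only to filter genes, to scale the libraries and to estimate the spread per gene. Every group was cultured in rich medium (YPD) at 30 °C, from diluted overnight cultures and with no further treatment, and libraries were made from polyadenylated RNA. BY4742 is a haploid laboratory strain of mating type alpha that carries deletions or partial deletions of HIS3, LEU2, LYS2 and URA3. This background is shared by bre1Δ, set2Δ and WT by name, and the alleles were not checked beyond the counts of these genes. The labels do not say how many clones of each deletion were used or whether the replicates were separate cultures, so p-values measure only the spread between these libraries, which may be technical.

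Bre1 is the ubiquitin ligase that, with the conjugating enzyme Rad6, attaches ubiquitin to histone H2B in transcribed genes. That mark is needed for methylation of histone H3 by the Set1 complex (COMPASS) and by Dot1. Set2 travels with elongating RNA polymerase II and methylates H3 at lysine K36, and the deacetylase complex Rpd3S reads that mark and keeps transcription from starting inside genes. Chronological aging is the time yeast cells survive in a culture that has used up its glucose and stopped dividing, when cells live on ethanol, acetate and stored lipids by respiration. The title of the series links Bre1 to the turnover of the Set2 protein in chronological aging, and the direct contrast shows where the transcriptomes of strains lacking either enzyme differ at the start of that period.

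The 2 deletions were visible in the libraries named for them. BRE1 (YDL074C on chromosome IV, 324047 to 326149) had 0 reads in the 3 bre1Δ libraries, against 5369 reads in the 3 set2Δ libraries, a level at least 620-fold higher in set2Δ when 3 counts are assumed in each bre1Δ library. SET2, at 102227 to 104428 of chromosome X (YJL168C), had 1821 reads in bre1Δ, against 20 in set2Δ, a level 87.6-fold higher in bre1Δ (95% counting interval 56.5 to 144). Counting intervals and floors cover counting error only. The genes beside the deletions differed less: SNR63 and AHK1 next to BRE1 stood at log2 fold changes, always given as bre1Δ over set2Δ, of 1.09 ± 0.25 and -0.30 ± 0.07 (± is the SE), and ASG7 and ERG20 next to SET2 at 0.81 ± 0.25 and 0.58 ± 0.05. HIS3 had 58.5, 63.2 and 52.1 CPM in bre1Δ, against 25.1, 25 and 20.1 CPM in set2Δ and 23.0, 28.8 and 22.6 CPM in WT. CPM here are counts per 1000000 of the TMM-scaled library total. LEU2, LYS2 and URA3 were at or under 0.446 CPM in all 9 libraries of day 1, and they were not tested.

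Library totals ran between 14117059 and 23335510 counts in bre1Δ, between 16083744 and 18527701 in set2Δ and between 14405784 and 21558268 in WT. Within each deletion the libraries lay close together. Their pairs had a Pearson r of at least 0.9929 over the genes, described on log2 CPM, and a chi-square per gene of 14.0 to 25 in bre1Δ and of 5.56 to 8.28 in set2Δ, where pure counting noise would give about 1. The 5 alpha-specific genes summed to 315, 346 and 323 CPM in bre1Δ, to 1785, 1631 and 1688 CPM in set2Δ and to 585, 692 and 630 CPM in WT, and none was at 0 in every library. The 7 a-specific genes summed to 102 to 117 CPM in bre1Δ, 106 to 113 CPM in set2Δ and 109 to 133 CPM in WT. Since each library is a mean over a culture and is scaled to its own total, fewer cells with a transcript and less of it per cell cannot be told apart.

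Most of the measured transcriptome differed between the deletions. Of 6320 genes tested, 5015 (79.4%) passed the edgeR adjusted p threshold of 0.05, of which 2487 (39.4% of genes tested) were higher in bre1Δ and 2528 (40.0%) lower. The groups did not overlap, all 3 libraries of one lying above all 3 of the other, in 5115 genes (80.9%). Many of these differences were small: 3726 of the called genes differed by less than 2-fold. At least 2-fold differences were found in 674 genes higher in bre1Δ (10.7%) and 615 lower (9.73%), together 1289 (20.4%). The log2 fold change had a median of -0.01 over all genes tested, and its 5th, 25th, 75th and 95th percentiles were -1.40, -0.50, 0.48 and 1.54. Values in brackets after a gene are its log2 fold change ± SE. Every count below is to be read against these shares, since a list with 39.4% of its members higher and 40.0% lower is like the genome.

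**Figure D1:**
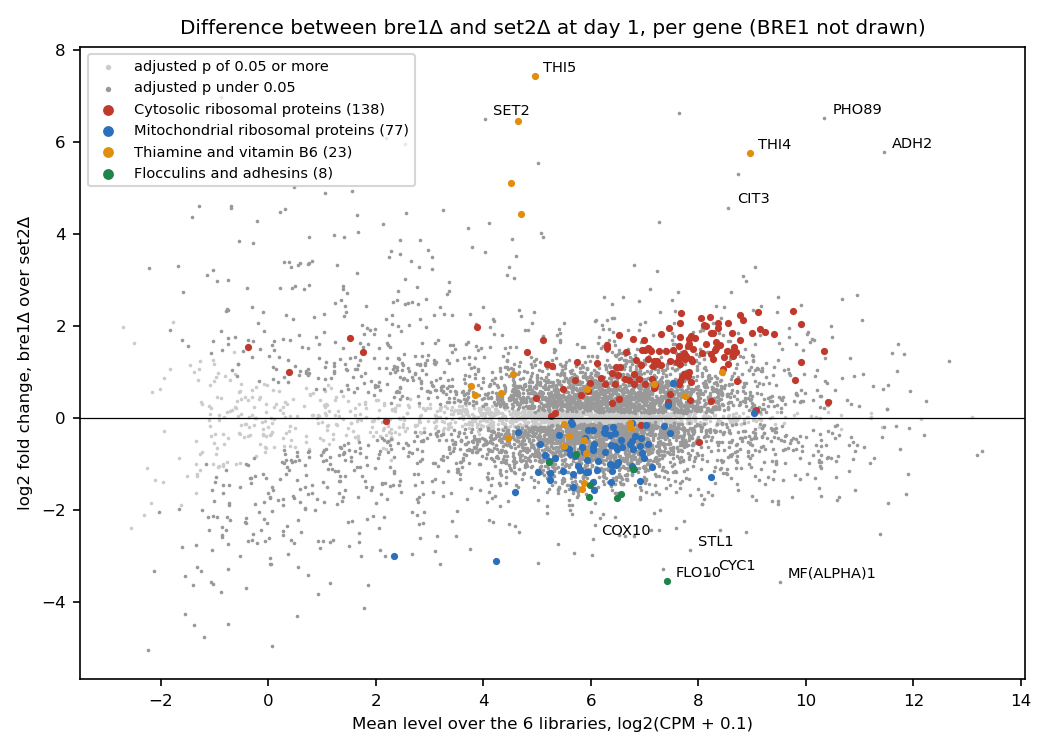
Log2 fold change of bre1Δ over set2Δ (y axis) against the mean level over the 6 libraries in log2(CPM + 0.1) (x axis), 1 point per gene, with BRE1 left out because it has 0 reads in bre1Δ. Most cytosolic ribosomal protein genes lie above 0 (133 of 138 called higher) and most mitochondrial ones below it (72 of 77 called lower), while a few thiamine genes, PHO89 and ADH2 reach log2 fold changes between 4.44 and 7.44.

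WT stood nearer to bre1Δ than to set2Δ, by the size of each deletion's log2 fold change over WT, for 458 (68.0%) of the 674 genes that were at least 2-fold higher in bre1Δ. It did so for 426 (69.3%) of the 615 that were at least 2-fold lower, and for 57.1% of all genes tested. The WT level lay between those of the deletions in 465 and 348 of these 2 sets, and in 2399 of all 6320 genes tested. Both distances share the WT libraries, so they are given as a description. They also depend on the TMM factors, which were 0.8573 to 0.8915 in the WT libraries and 1.056 to 1.139 in those of the deletions. No other scaling was tried for the comparisons with WT.

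Among the largest rises was that of ADH2 (YMR303C on chromosome XIII, 873291 to 874337), whose product turns ethanol into acetaldehyde once glucose is gone. ADH2 had 5933, 5931 and 4659 CPM in bre1Δ, against 91.0, 127 and 81.5 CPM in set2Δ, and 16006, 16182 and 16281 CPM in WT. The 3 groups did not overlap, with bre1Δ far above set2Δ and below WT. The difference between the deletions was 5.78 ± 0.14 (edgeR adjusted p = 4.53e-18). ADH2 shares 14.0% of its 50-base windows with other places in the genome, chiefly its paralog, so a small part of its reads could belong elsewhere. ADH1, the main fermentative alcohol dehydrogenase, went the other way, with 834, 1035 and 1034 CPM in bre1Δ, against 2996, 2719 and 2956 CPM in set2Δ and 2523 to 2672 CPM in WT (-1.58 ± 0.09, edgeR adjusted p = 1.8e-12).

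Genes that carry carbon on from ethanol were mostly higher in bre1Δ. Of 25 genes of the glyoxylate cycle, gluconeogenesis and acetate use, 17 rose in bre1Δ, 12 of them at least 2-fold, and 6 fell, with a median of 0.91 against -0.01 over all genes. ACS1, the acetyl-CoA synthetase used without glucose, had 2907, 2950 and 2577 CPM in bre1Δ, against 483, 503 and 430 CPM in set2Δ and 6423, 6362 and 5679 CPM in WT (2.57 ± 0.07). PDH1, a methylcitrate dehydratase of propionate breakdown, had 944, 861 and 629 CPM in bre1Δ, against 93.1, 101 and 94.5 CPM in set2Δ and 1376 to 2011 CPM in WT (3.08 ± 0.13). CIT3, the citrate and methylcitrate synthase of the same route, had 811, 778 and 587 CPM in bre1Δ, against 31.0, 29.7 and 30.6 CPM in set2Δ and 1233 to 1825 CPM in WT (4.57 ± 0.13). In all 3 genes the order was WT, then bre1Δ, then set2Δ, with no overlap. SIP4, a transcription activator of gluconeogenic genes, rose by 2.09 ± 0.09, while CAT8 and ADR1, activators of the same class of genes, stood at -0.12 and -0.08 and did not pass the threshold, though CAT8 passed without replicate 1 of bre1Δ (-0.16, edgeR adjusted p = 0.038). The 6 members that fell were ALD6, the cytosolic acetaldehyde dehydrogenase (-1.15), the gluconeogenic enzymes PCK1 (-0.73) and FBP1 (-0.59), ACH1 (-0.42), the carrier SFC1 (-0.42) and IDP2 (-0.26).

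Peroxisomal fatty acid oxidation, the only route by which yeast breaks down fatty acids, had 13 of 19 genes higher in bre1Δ, 11 of them at least 2-fold, and 4 lower, with a median of 1.17. PXA1, a subunit of the transporter that brings fatty acids into the peroxisome, had 612, 569 and 512 CPM in bre1Δ, against 121, 127 and 128 CPM in set2Δ and 616 to 758 CPM in WT (2.17 ± 0.08). ANT1, the peroxisomal ATP carrier, had 129, 128 and 125 CPM in bre1Δ, against 28.2 to 29.9 CPM in set2Δ and 97.5 to 113 CPM in WT (2.13 ± 0.06). For both genes WT was much nearer to bre1Δ than to set2Δ. The list as a whole lay below WT in both deletions, with a median log2 fold change over WT of -1.27 for bre1Δ and -2.34 for set2Δ, in comparisons that share the WT libraries. FAA2 (1.84 ± 0.09), which activates fatty acids in the peroxisome, and the peroxisomal catalase CTA1 (1.76 ± 0.08) rose as well. The members that fell were PNC1 (-0.73), FAA1 (-0.48), MDH3 (-0.33) and PIP2 (-0.24). The peroxins, which build the organelle and import its enzymes, showed no such shift: 10 of 23 were higher, 11 lower, and their median was 0.02.

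Thiamine genes gave 5 of the 12 largest rises, and the phosphate transporter gene PHO89 another. THI4 (YGR144W, chromosome VII, 780399 to 781379), which makes the thiazole part of thiamine, had 818, 902 and 1202 CPM in bre1Δ, against 19.2, 18.7 and 16.0 CPM in set2Δ and 1264, 1084 and 1689 CPM in WT (5.76 ± 0.17, edgeR adjusted p = 3.5e-17). The 4 copies of the gene for the pyrimidine part, THI5, THI11, THI12 and THI13, rose by 7.44 ± 0.32, 4.44 ± 0.12, 6.47 ± 0.27 and 5.11 ± 0.18. Of the 50-base windows of these copies, 85.0%, 79.0%, 70.6% and 60.0% occur at other places in the genome, so the division of reads among them is uncertain. THI5 had 40.7, 57.3 and 86.1 CPM in bre1Δ, against 0.281, 0.379 and 0.373 CPM in set2Δ and 105 to 123 CPM in WT. The bre1Δ libraries spread more than 2-fold for THI5, and all of them lay above set2Δ and below WT. Outside these 5 genes the list of 23 thiamine and vitamin B6 genes moved less and in both directions: in all, 13 were higher and 8 lower, with a median of 0.50. The thiamine transporter gene THI7 stood at 1.00, while THI72 (-1.55) and THI21 (-1.41) fell.

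PHO89 (YBR296C, chromosome II, 796798 to 798522), a sodium-phosphate cotransporter of the plasma membrane, had 2468, 2593 and 2631 CPM in bre1Δ, against 25, 29.3 and 29.9 CPM in set2Δ and 1277, 764 and 1381 CPM in WT (6.51 ± 0.17, edgeR adjusted p = 1.11e-17). Here bre1Δ was the highest group and set2Δ the lowest. SPL2, an inhibitor of low-affinity phosphate uptake, had 32.8, 37.3 and 50.1 CPM in bre1Δ, against 4.10, 4.36 and 3.89 CPM in set2Δ and 19.8 to 23.2 CPM in WT (3.28 ± 0.14). The phosphate list as a whole was split, with 12 of 25 genes higher and 8 lower. VTC3, a subunit of the polyphosphate polymerase (-1.12 ± 0.04), and GDE1, a glycerophosphodiesterase (-1.09 ± 0.05), were among those that fell.

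The other genes among the 12 largest rises were SET2 itself, RDN5-1, DPA10 and YPR145C-A. RDN5-1, a copy of the 5S ribosomal RNA gene, had 52.7, 77.2 and 59.0 CPM in bre1Δ, against 1.91, 0.759 and 1.49 CPM in set2Δ and 10.8 to 22.8 CPM in WT. All of its 50-base windows occur elsewhere in the genome (100%), and the transcript has no poly(A) tail, so its level in these libraries is uncertain. DPA10 had 829, 804 and 873 CPM in bre1Δ, against 14.2, 31.5 and 16.8 CPM in set2Δ and 1207 to 2530 CPM in WT (5.31 ± 0.24). YPR145C-A had 330, 347 and 510 CPM in bre1Δ, against 3.65, 4.69 and 3.57 CPM in set2Δ and 29.9 to 49.3 CPM in WT (6.63 ± 0.20). For this gene WT lay between the deletions, at log2 fold changes over WT of 3.28 for bre1Δ and -3.35 for set2Δ. Of all 12 largest rises, 8 had a WT level above both deletions and 4 a WT level between them. Among all 6320 genes tested these numbers were 1934 and 2399.

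**Figure D2:**
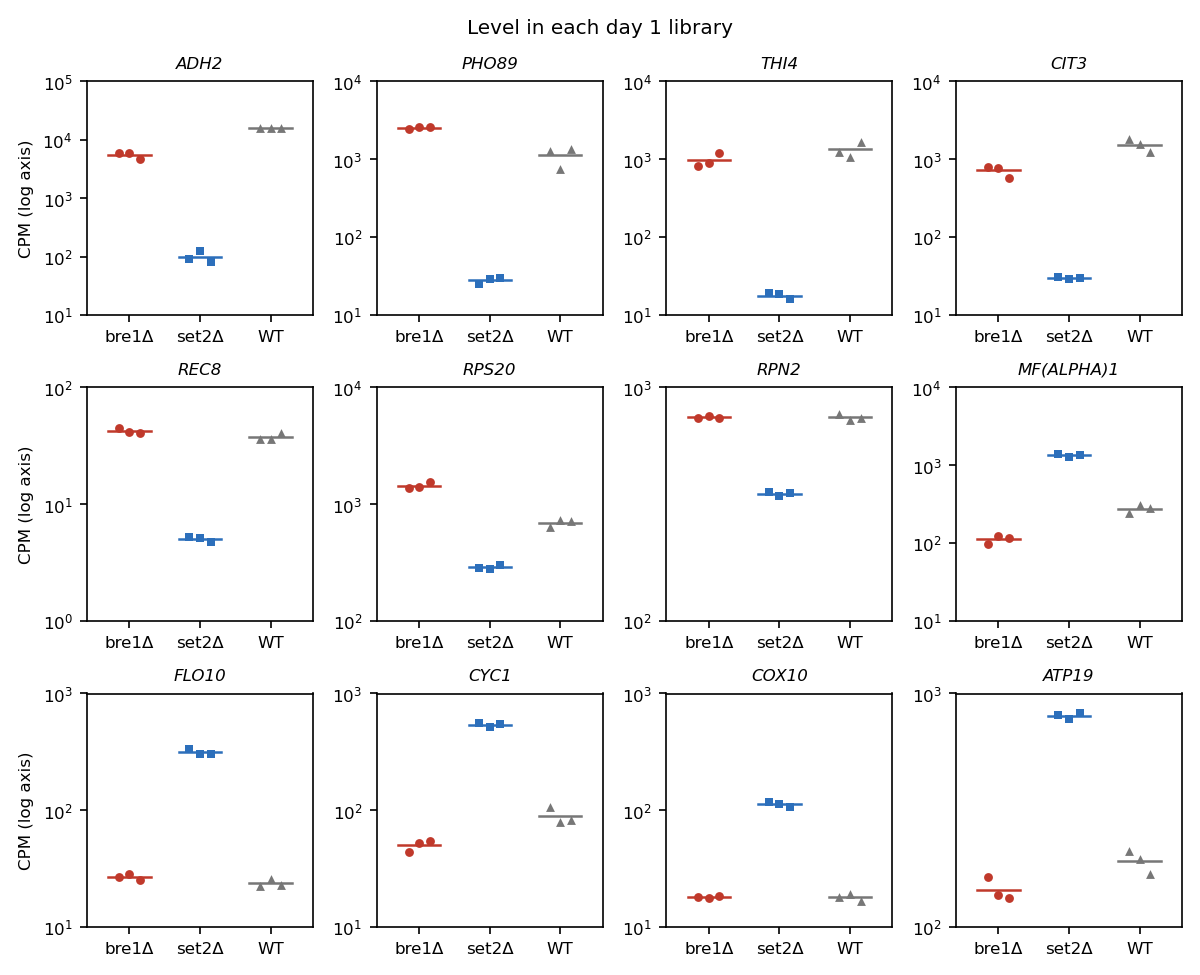
CPM on a log axis in each bre1Δ (circles), set2Δ (squares) and WT (triangles) library of day 1 for 12 genes, with lines at the group means. The first 7 genes are higher in bre1Δ than in set2Δ and the last 5 lower, as in ADH2 with 4659 to 5933 CPM in bre1Δ and 81.5 to 127 CPM in set2Δ. In all 12 the libraries of the 2 deletions do not overlap, which also holds for 80.9% of all genes tested. The genes were picked for large differences or small p-values, and for the largest rises and falls no overlap was a condition of the choice.

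The falls were led, apart from BRE1, by the genes of a pheromone, an adhesin and a cytochrome c. MF(ALPHA)1 (YPL187W, chromosome XVI, 193648 to 194145), the main gene of the alpha-factor pheromone, had 99.7, 124 and 118 CPM in bre1Δ, against 1420, 1277 and 1352 CPM in set2Δ and 249, 308 and 282 CPM in WT (-3.57 ± 0.08, edgeR adjusted p = 2.26e-18). WT lay between the deletions and nearer to bre1Δ. The smaller pheromone gene MF(ALPHA)2 (-0.76 ± 0.10), the agglutinin SAG1 (-0.87 ± 0.05) and the barrier protein AFB1 (-0.82 ± 0.11) were lower in bre1Δ too, at set2Δ levels close to WT, whereas the receptor gene STE3 did not pass the threshold (-0.03 ± 0.06, adjusted p = 0.651). Of 7 a-specific genes, 4 were higher in bre1Δ and 2 lower, among them AGA2 with 7.91, 10.8 and 7.57 CPM in bre1Δ, against 1.97, 1.14 and 1.44 CPM in set2Δ (2.56 ± 0.26).

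All 8 genes of the flocculin and adhesin list, which covers proteins for sticking to cells and surfaces and their activator FLO8, were lower in bre1Δ, 6 of them at least 2-fold, with a median of -1.55. FLO10 (YKR102W, chromosome XI, 646356 to 649865) had 26.9, 28.7 and 25.4 CPM in bre1Δ, against 337, 304 and 307 CPM in set2Δ and 22.8, 25.8 and 23.0 CPM in WT (-3.54 ± 0.08, edgeR adjusted p = 1.71e-18). It was the set2Δ libraries that stood apart, while bre1Δ and WT were near each other. FLO1 (-1.46), FLO5 (-1.74) and FLO9 (-1.72) fell too, with 53.8%, 38.6% and 63.4% of their windows repeated elsewhere in the genome, so reads may be divided wrongly among them. FLO8 itself had 42.8, 48.7 and 44.4 CPM in bre1Δ, against 147, 146 and 134 CPM in set2Δ and 51.6 to 56.5 CPM in WT (-1.65 ± 0.06). It is also one of the genes described as starting transcription from inside the gene without Set2, and gene counts cannot separate such transcripts from full-length ones. FLO11, the adhesin of surface growth, differed least (-0.78 ± 0.09).

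Of the other genes among the 12 largest falls, STL1, a glycerol-proton symporter, had 54.6, 53.4 and 58.0 CPM in bre1Δ, against 404, 422 and 386 CPM in set2Δ and 123 to 152 CPM in WT (-2.87 ± 0.06). SUT1, a transcription factor of sterol uptake, had 11.5, 12.1 and 9.04 CPM in bre1Δ, against 70.3, 79.1 and 69.8 CPM in set2Δ and 12.3 to 20.9 CPM in WT (-2.74 ± 0.13). SCR1, the RNA of the signal recognition particle, had 25, 38.1 and 26.8 CPM in bre1Δ, against 376, 300 and 210 CPM in set2Δ and 54.7 to 74.1 CPM in WT (-3.28 ± 0.36). SCR1 has no poly(A) tail and spread widely within set2Δ. Its groups did not overlap, which was a condition for naming the largest falls. AIM33 (-2.99 ± 0.08), YMR175W-A (-3.16 ± 0.16), YMR173W-A (-2.94 ± 0.16) and YIL086C (-2.86 ± 0.22) complete the set with CYC1 and MRPL51, described with the mitochondrial genes. YMR173W-A matched no entry of the RefSeq R64 annotation of the genome, so its overlap with other genes is not known here. The strand setting of the counting is not stated, so its reads cannot be assigned with certainty. WT stood nearer to bre1Δ than to set2Δ in 11 of the 12 largest falls, BRE1 being the exception.

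Genes of the cytosolic ribosome rose together in bre1Δ. Of 138 cytosolic ribosomal protein genes, 133 were higher in bre1Δ (39.4% of all genes were), 97 of them at least 2-fold, and 1 was lower, with a median of 1.33. The large subunit had 74 of 76 genes higher and the small subunit 53 of 56. RPS20 had 1389, 1397 and 1541 CPM in bre1Δ, against 285, 281 and 301 CPM in set2Δ and 644, 731 and 727 CPM in WT (2.32 ± 0.06, edgeR adjusted p = 1.75e-17). RPS1A had 874, 879 and 987 CPM in bre1Δ, against 181, 175 and 202 CPM in set2Δ and 359, 365 and 429 CPM in WT (2.30 ± 0.07). RPP0, of the ribosomal stalk, had 452, 491 and 510 CPM in bre1Δ, against 134, 135 and 133 CPM in set2Δ and 236 to 267 CPM in WT (1.85 ± 0.06). In these 3 genes WT lay between the deletions. The exceptions in the list were RPS30B, which was lower (-0.52), and RPL23A (-0.16), RPL36B (-0.08), RPS9A (0.03) and RPS27A (0.11), which did not pass the threshold. RPL23A passed as lower without replicate 2 or 3 of bre1Δ (-0.22 and -0.19) or replicate 3 of set2Δ (-0.22), which makes 2 lower members. The pair RPS9A and RPS9B encode the same protein of the small subunit, yet RPS9B had 415, 436 and 445 CPM in bre1Δ, against 92.8, 96.5 and 99.1 CPM in set2Δ (2.17 ± 0.05).

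As a share of all counts, the cytosolic ribosomal protein genes took 4.93%, 5.01% and 5.34% in bre1Δ, against 2.07%, 2.08% and 2.18% in set2Δ and 2.32%, 2.67% and 2.72% in WT. The means were 5.09% ± 0.220 in bre1Δ, 2.11% ± 0.0636 in set2Δ and 2.57% ± 0.215 in WT (SD, n = 3 each). The groups bre1Δ and set2Δ did not overlap, and the exact two-sided permutation test gave p = 0.10, the smallest that 3 against 3 can give. The median log2 fold change of the list over WT was 0.64 for bre1Δ and -0.71 for set2Δ, in comparisons that share the WT libraries. The shares are of unscaled library totals, whereas these fold changes use TMM scaling, and the 2 measures place WT differently. By share WT lay nearer to set2Δ, and by the medians about as far from one deletion as from the other.

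**Figure D3:**
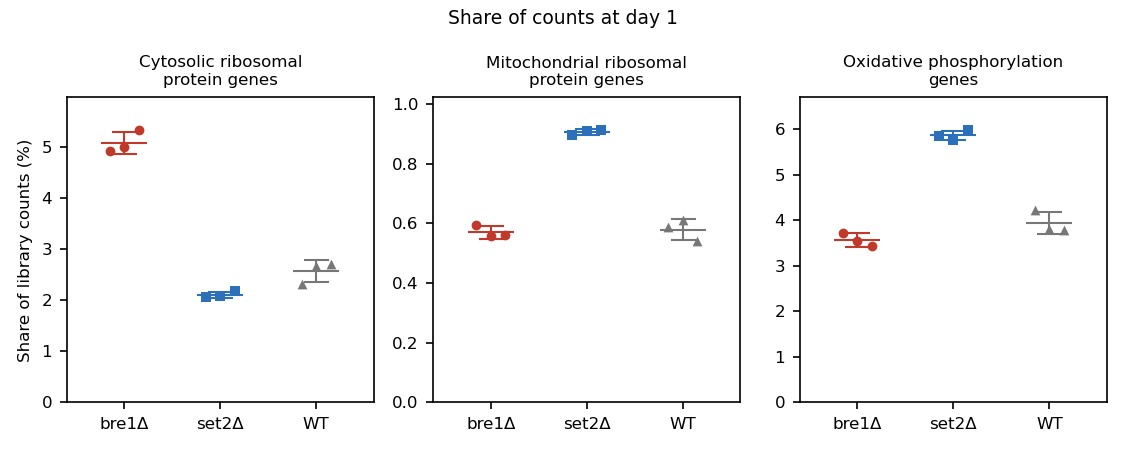
Share of library counts in percent (y axes start at 0) taken by 3 gene lists in bre1Δ (circles), set2Δ (squares) and WT (triangles) at day 1, with the mean and SD of 3 libraries. Cytosolic ribosomal protein genes average 5.09% in bre1Δ and 2.11% in set2Δ, while mitochondrial ribosomal protein genes average 0.570% and 0.906% and oxidative phosphorylation genes 3.57% and 5.86%.

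Other genes of protein synthesis did not move as one block. Of 32 translation factor genes, 22 were higher and 6 lower, with a median of 0.45. TIF1 and TIF2, which encode the same RNA helicase of initiation and share 84.9% of their windows with other places in the genome, rose by 1.70 ± 0.06 and 1.44 ± 0.05. The elongation factor gene EFT1, with 91.9% shared windows, rose by 1.42 ± 0.07, and PRT1, a subunit of initiation factor eIF3, by 0.91 ± 0.05. Ribosome biogenesis, the assembly of ribosomes in the nucleolus, had 61 of 130 genes higher and 45 lower, with a median of 0.09, close to the genome. Within it NOP56 had 126, 128 and 126 CPM in bre1Δ, against 49.2 to 51.4 CPM in set2Δ (1.33 ± 0.04), while SDA1 had 69.3, 77.5 and 88.7 CPM in bre1Δ, against 223, 215 and 210 CPM in set2Δ (-1.46 ± 0.08). Of 24 subunits of RNA polymerases I and III, 11 were higher and 3 lower. RPA190, the largest subunit of polymerase I, had 259, 276 and 294 CPM in bre1Δ, against 88.6, 89.3 and 95.5 CPM in set2Δ and 118 to 146 CPM in WT (1.60 ± 0.07).

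Mitochondrial ribosomal proteins, which make the few proteins encoded in mitochondrial DNA, went the other way from the cytosolic ones. Of 77 genes, 72 were lower in bre1Δ (40.0% of all genes were), 25 of them at least 2-fold, and 2 were higher, RSM10 (0.75) and MRP51 (0.28), with a median of -0.71. MRPL50 had 45.1, 44.5 and 46.4 CPM in bre1Δ, against 120, 115 and 125 CPM in set2Δ and 55.8 to 68.1 CPM in WT (-1.40 ± 0.06). MRPS18 had 70.6, 66.7 and 64.1 CPM in bre1Δ, against 179, 169 and 173 CPM in set2Δ and 103 to 125 CPM in WT (-1.37 ± 0.07). MRPL51 showed the widest gap, with 4.58, 3.37 and 3.76 CPM in bre1Δ, against 30.2, 34.5 and 35.6 CPM in set2Δ and at most 3.64 CPM in WT (-3.12 ± 0.12). Its span overlaps 1 other annotated gene and the strand setting of the counting is not stated, so its reads cannot be assigned with certainty. The share of counts of the whole list was 0.594%, 0.556% and 0.559% in bre1Δ, against 0.896%, 0.909% and 0.912% in set2Δ and 0.540% to 0.610% in WT (exact permutation p = 0.10).

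The nuclear genes of oxidative phosphorylation, which encode the respiratory chain and the ATP synthase, were lower in bre1Δ as well. Of 44 genes, 42 were lower, 13 of them at least 2-fold, 1 was higher and 1 did not pass the threshold, with a median of -0.71. By complex, all 9 cytochrome oxidase genes were lower (median -1.0), as were all 9 of the cytochrome bc1 complex (-0.78), all 17 of the ATP synthase (-0.67) and 3 of the 4 SDH genes (-0.41). CYC1 (YJR048W, chromosome X, 526335 to 526664), the main cytochrome c, had 44.2, 52.9 and 55.3 CPM in bre1Δ, against 554, 519 and 545 CPM in set2Δ and 80.2 to 108 CPM in WT (-3.41 ± 0.09, edgeR adjusted p = 1.87e-17). CYC7, the second cytochrome c, had 28.3, 29.4 and 27.9 CPM in bre1Δ, against 158, 164 and 192 CPM in set2Δ and 292 to 346 CPM in WT (-2.58 ± 0.07). The 2 cytochrome c genes thus shared the direction between the deletions, with WT near bre1Δ for CYC1 and above set2Δ for CYC7. ATP19, a small subunit of the ATP synthase, had 164, 138 and 133 CPM in bre1Δ, against 810, 777 and 828 CPM in set2Δ and 168 to 213 CPM in WT (-2.47 ± 0.08). NDE2, an external NADH dehydrogenase, was the 1 member higher in bre1Δ, with 1696, 1796 and 1635 CPM, against 535, 526 and 508 CPM in set2Δ and 1790 to 2162 CPM in WT (1.71 ± 0.06).

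Genes that assemble or regulate the chain showed the same tilt. Of 48 genes for respiratory assembly, heme and their regulators, 36 were lower, 15 of them at least 2-fold, and 6 higher, with a median of -0.81. COX10, which makes the heme of cytochrome oxidase, had 18.1, 17.7 and 18.6 CPM in bre1Δ, against 117, 114 and 107 CPM in set2Δ and 17.0 to 19.1 CPM in WT (-2.64 ± 0.07). HAP4, the limiting subunit of the CCAAT-binding activator of respiratory genes, had 321, 304 and 301 CPM in bre1Δ, against 1135, 1101 and 1155 CPM in set2Δ and 724, 774 and 788 CPM in WT (-1.87 ± 0.05). HAP1, the heme-responsive activator, was higher in bre1Δ, with 498, 519 and 555 CPM, against 147, 145 and 147 CPM in set2Δ and 290 to 363 CPM in WT (1.84 ± 0.07). ROX1, the repressor of hypoxic genes, had 79.5, 71.5 and 74.0 CPM in bre1Δ, against 386, 352 and 321 CPM in set2Δ (-2.24 ± 0.07). The tricarboxylic acid cycle was mixed, with 12 of 20 genes lower and 6 higher: IDH1 (-1.16 ± 0.06) and SDH4 (-1.22 ± 0.06) fell, and CIT3, described above, rose.

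Since the members of the oxidative phosphorylation list moved together, the 300 bases before the start of each gene's coding span were read from the RefSeq R64 reference, of the sacCer3 build, and the CCAAT box was counted on both strands. It was present before 37 of the 44 oxidative phosphorylation genes (84.1%), against 2489 of 5910 genes in all (42.1%). Members with the box had a median log2 fold change of -0.74 and the 7 without it -0.49. CYC1, the largest fall of the list (-3.41), and NDE2, its only member that was higher (1.71), were both among the 7 without it. The windows of ATP19 and SDH4, which each hold 1 match, are shown with the box in capitals, as ATTGG where it lies on the other strand.
ATP19, chrXV:185138-185437, + strand: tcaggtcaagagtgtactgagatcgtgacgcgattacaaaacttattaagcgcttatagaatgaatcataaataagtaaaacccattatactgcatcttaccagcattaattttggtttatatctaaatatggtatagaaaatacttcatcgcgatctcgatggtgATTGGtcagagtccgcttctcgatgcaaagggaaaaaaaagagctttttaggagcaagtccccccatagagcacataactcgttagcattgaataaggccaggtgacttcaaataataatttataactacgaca
SDH4, chrIV:817650-817949, + strand: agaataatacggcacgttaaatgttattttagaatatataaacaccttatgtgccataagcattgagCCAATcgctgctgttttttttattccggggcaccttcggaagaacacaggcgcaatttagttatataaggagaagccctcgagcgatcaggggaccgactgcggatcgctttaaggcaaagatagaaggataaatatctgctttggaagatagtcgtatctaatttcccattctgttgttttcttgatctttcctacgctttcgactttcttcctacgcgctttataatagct
The match begins 134 bases before the start of ATP19 and 233 bases before that of SDH4. SDH4 had 655, 630 and 601 CPM in bre1Δ, against 1519, 1415 and 1456 CPM in set2Δ and 1020 to 1126 CPM in WT. A match describes the letters of the window, not binding.

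**Figure D4:**
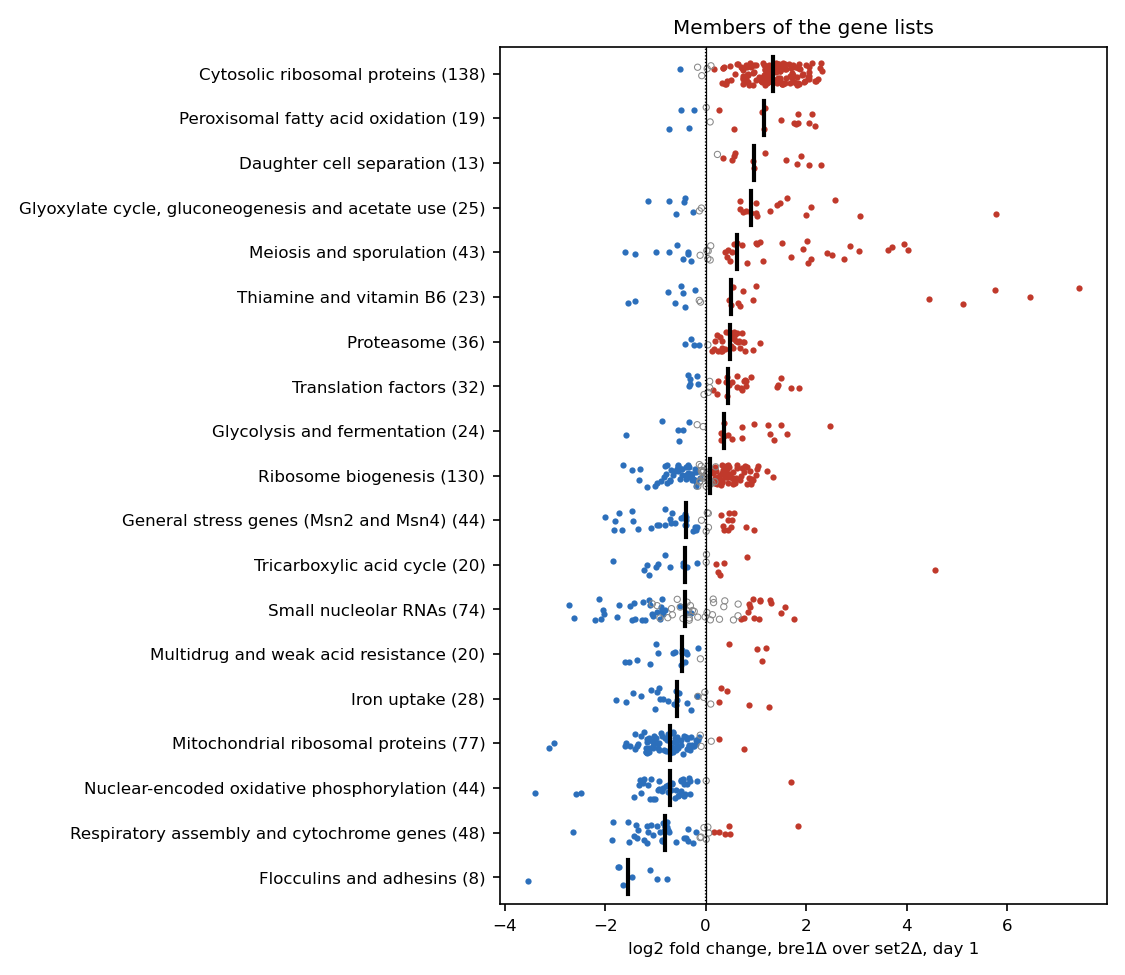
Log2 fold change of bre1Δ over set2Δ (x axis) for the tested members of 19 gene lists, ordered by their medians (black bars), with the number of members in brackets. Red points are higher and blue points lower at an edgeR adjusted p under 0.05, open points did not pass, and the dotted line is the median of all genes (-0.01). The lists run from 1.33 for cytosolic ribosomal proteins to -1.55 for flocculins and adhesins.

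The proteasome, which degrades ubiquitinated proteins, was mostly higher in bre1Δ, by less than 2-fold in all but 1 of the genes called higher. Of 36 genes, 31 were higher, 1 of them at least 2-fold, and 4 lower, with a median of 0.49. RPN2, a subunit of the regulatory cap, had 739, 758 and 743 CPM in bre1Δ, against 357, 345 and 353 CPM in set2Δ and 723 to 769 CPM in WT (1.09 ± 0.05, edgeR adjusted p = 1.05e-14). RPT3, an ATPase of the cap, had 388, 385 and 382 CPM in bre1Δ, against 207, 199 and 199 CPM in set2Δ and 330 to 380 CPM in WT (0.93 ± 0.05). PUP1 (0.79 ± 0.05) and PRE9 (0.54 ± 0.04) of the catalytic core rose as well, and in all 4 genes bre1Δ stood near WT. The members that were lower were RPN4 (-0.40), which encodes the activator of proteasome genes, SEM1 (-0.30), RPN13 (-0.23) and RPN11 (-0.14). RPN13 lost its call without replicate 3 of set2Δ (-0.14, edgeR adjusted p = 0.068), and RPN11 without replicate 2 of bre1Δ or replicate 1 or 3 of set2Δ (adjusted p = 0.062, 0.105 and 0.084). The proteasome-associated control element that Rpn4 binds, GGTGGCAAA, was found on either strand in the 300 bases before 28 of the 36 genes (77.8%), against 72 of 5910 genes in all (1.22%). With the element the median was 0.52, and 0.26 for the 8 genes without it. The windows of RPN2 and RPT3 are shown because these genes had the 2 smallest p-values of the list, with the element in capitals.
RPN2, chrIX:220701-221000, - strand: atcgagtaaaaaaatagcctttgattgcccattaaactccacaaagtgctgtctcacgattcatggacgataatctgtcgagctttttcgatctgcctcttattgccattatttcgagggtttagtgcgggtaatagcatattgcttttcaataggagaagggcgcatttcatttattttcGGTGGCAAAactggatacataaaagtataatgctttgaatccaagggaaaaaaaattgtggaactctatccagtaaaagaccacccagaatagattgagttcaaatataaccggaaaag
RPT3, chrIV:1261381-1261680, + strand: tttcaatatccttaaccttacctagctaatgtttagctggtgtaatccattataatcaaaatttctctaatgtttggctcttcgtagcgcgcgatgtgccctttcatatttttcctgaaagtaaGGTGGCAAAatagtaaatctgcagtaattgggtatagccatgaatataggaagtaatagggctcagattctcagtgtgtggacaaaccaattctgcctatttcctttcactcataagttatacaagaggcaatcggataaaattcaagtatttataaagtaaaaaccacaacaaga
The element begins 119 bases before the start of RPN2 and 176 bases before that of RPT3.

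Meiosis and sporulation genes, which haploid cells normally keep low, were higher in bre1Δ more often than lower. Of 43 genes, 28 were higher, 19 of them at least 2-fold, and 9 lower, 2 of them at least 2-fold, with a median of 0.62. Many of these genes had few counts: 27 of the 43 were among the genes of at least 10 CPM. Of the 28 higher members, 14 were among them, and all 14 were higher there too. OSW2, of the spore wall, had 56.2, 64.2 and 74.6 CPM in bre1Δ, against 4.50, 4.36 and 3.84 CPM in set2Δ and 24.0 to 36.2 CPM in WT (3.94 ± 0.16). REC8, the meiotic cohesin, had 44.7, 41.3 and 40.8 CPM in bre1Δ, against 5.28, 5.22 and 4.79 CPM in set2Δ and 36 to 40.9 CPM in WT (3.05 ± 0.13). DIT1, an enzyme of the dityrosine layer of the spore wall, rose by 2.10 ± 0.09. RED1, of the meiotic chromosome axis, was lower in bre1Δ, with 44.5, 41.1 and 47.2 CPM, against 118, 118 and 113 CPM in set2Δ and 24.5 to 27.2 CPM in WT (-1.40 ± 0.06). So set2Δ was below WT for REC8 and above it for RED1. The 5 spore genes kept as a check for sporulated cells summed to 1413, 1588 and 1977 CPM in bre1Δ, against 843, 762 and 864 CPM in set2Δ and 1743 to 2739 CPM in WT, nearly all of it SPS100.

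The core of the URS1 element that Ume6 binds to repress early meiotic genes, GGCGGC, was found on either strand in the 300 bases before 15 of the 43 genes (34.9%), against 311 of 5910 genes in all (5.26%). Here the members with the motif had a median of 0.05 and the 28 without it 0.92. REC8 and ZIP1, a protein of the synaptonemal complex, both hold 1 match, in capitals. They had the smallest p-values of the 15 members with the motif, and they moved in opposite directions.
REC8, chrXVI:571379-571678, - strand: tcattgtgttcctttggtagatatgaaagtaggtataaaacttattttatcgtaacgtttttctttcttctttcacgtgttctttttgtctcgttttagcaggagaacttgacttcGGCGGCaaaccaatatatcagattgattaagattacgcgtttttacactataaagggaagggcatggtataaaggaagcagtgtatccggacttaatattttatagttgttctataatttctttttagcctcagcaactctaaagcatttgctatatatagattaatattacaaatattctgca
ZIP1, chrIV:1032136-1032435, + strand: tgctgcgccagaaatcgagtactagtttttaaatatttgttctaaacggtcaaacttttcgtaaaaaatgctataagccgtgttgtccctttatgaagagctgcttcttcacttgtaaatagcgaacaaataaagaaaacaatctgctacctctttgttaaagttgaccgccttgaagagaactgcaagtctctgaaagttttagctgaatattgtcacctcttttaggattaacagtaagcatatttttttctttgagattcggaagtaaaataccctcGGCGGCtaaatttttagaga
The match begins 184 bases before the start of REC8 and 20 bases before that of ZIP1. ZIP1 averaged 17.9 CPM in bre1Δ and 54.6 CPM in set2Δ (-1.61 ± 0.07, edgeR adjusted p = 4.86e-14), while REC8 was higher in bre1Δ as given above. None of the 3 motifs counted here contains another.

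Genes for the separation of daughter cells, many of them used in daughters at the end of division, were higher in bre1Δ. Of 13 genes, 12 were higher, 6 of them at least 2-fold, and DSE3 did not pass the threshold, with a median of 0.97. SUN4, a glucanase of the septum, had 157, 333 and 292 CPM in bre1Δ, against 56.2, 55.7 and 47.7 CPM in set2Δ and 281, 514 and 260 CPM in WT (2.30 ± 0.24, edgeR adjusted p = 1.75e-08). CTS1, the chitinase that splits the septum, had 864, 1631 and 1479 CPM in bre1Δ, against 695, 714 and 646 CPM in set2Δ and 1774, 3255 and 1590 CPM in WT (0.95 ± 0.20, edgeR adjusted p = 0.000251). In SUN4 and CTS1, replicate 1 of bre1Δ was the lowest of its group and replicate 2 of WT the highest of its own. The 13 genes summed to 4092, 7173 and 6631 CPM in bre1Δ, against 2817, 2812 and 2627 CPM in set2Δ and 7180, 12252 and 6504 CPM in WT. These sums did not overlap between bre1Δ and set2Δ with replicate 1 included. Gene by gene, the libraries of bre1Δ and set2Δ overlapped in DSE3, ASH1 and PRY3, and over all genes tested 80.9% did not overlap. DSE3 (0.23 ± 0.14, adjusted p = 0.138) passed the threshold without replicate 1 of bre1Δ (0.42 ± 0.12, adjusted p = 0.004), while ASH1 (0.35 ± 0.10) and PRY3 (0.53 ± 0.16) lost the call without replicate 2 of bre1Δ (adjusted p = 0.055 and 0.069). All of these adjusted p values are from edgeR.

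**Figure D5:**
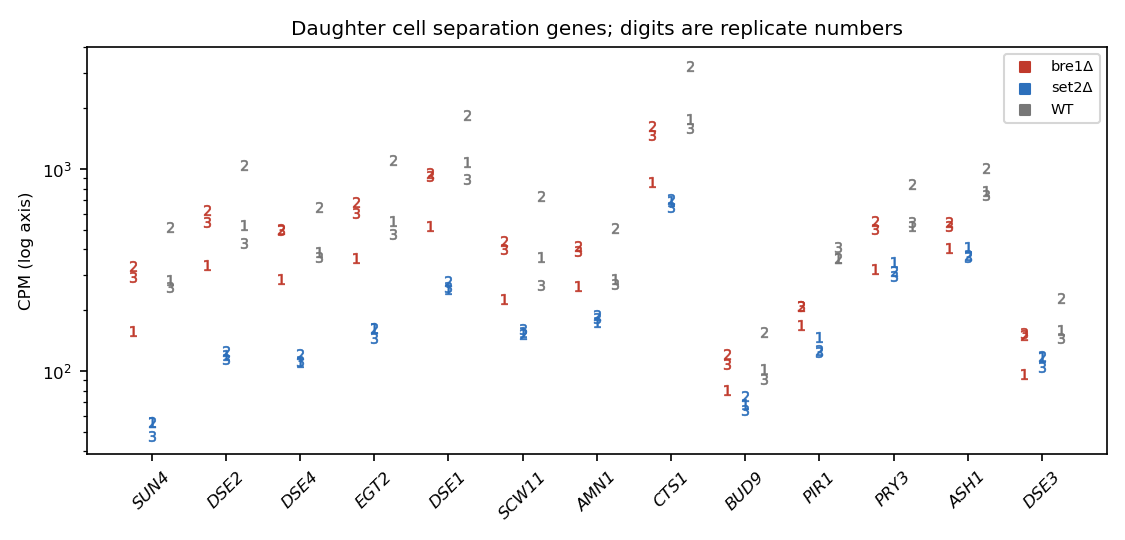
CPM on a log axis of the 13 daughter cell separation genes in bre1Δ, set2Δ and WT libraries of day 1, ordered by log2 fold change, with each library drawn as its replicate number. Replicate 1 of bre1Δ lies below replicates 2 and 3 in most genes, as in CTS1 with 864 CPM against 1631 and 1479 CPM, while the set2Δ libraries lie close together.

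Glycolysis and fermentation had 16 of 24 genes higher in bre1Δ, 6 at least 2-fold, and 6 lower, with a median of 0.37. PDC6, a minor pyruvate decarboxylase, had 125, 156 and 148 CPM in bre1Δ, against 28.4, 23.8 and 25.1 CPM in set2Δ and 86.8 to 128 CPM in WT (2.48 ± 0.11). ENO2, an enolase, had 411, 610 and 634 CPM in bre1Δ, against 190, 194 and 204 CPM in set2Δ and 695 to 926 CPM in WT (1.49 ± 0.12). PFK2, a subunit of phosphofructokinase, rose by 0.96 ± 0.08, and ADH1, as given above, was the only member at least 2-fold lower. Of 24 tested hexose transporters and sensors, 12 were higher and 10 lower. HXT10 had 33.8, 30.6 and 32.6 CPM in bre1Δ, against 1.85, 1.94 and 1.28 CPM in set2Δ and 6.71 to 13.7 CPM in WT (4.24 ± 0.21). HXT7, a high-affinity transporter with 95.1% shared windows, had 25.1, 30.2 and 25.1 CPM in bre1Δ, against 162, 156 and 155 CPM in set2Δ (-2.55 ± 0.12). MTH1, a repressor of HXT genes, fell by 1.57 ± 0.07 on the log2 scale.

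Stress genes under the activators Msn2 and Msn4 were lower in bre1Δ more often than higher, 28 against 11 of 44, with a median of -0.40 and 9 of the 28 at least 2-fold lower. CTT1, the cytosolic catalase, had 311, 304 and 340 CPM in bre1Δ, against 1147, 1102 and 1111 CPM in set2Δ and 1416 to 1831 CPM in WT (-1.81 ± 0.08). SPI1, a cell wall protein, had 718, 728 and 603 CPM in bre1Δ, against 2517, 2337 and 2271 CPM in set2Δ and 2104 to 2285 CPM in WT (-1.80 ± 0.08). YGP1, a secreted stress protein, fell by 1.72 ± 0.08 and ALD3, an aldehyde dehydrogenase with 40.4% shared windows, by 2.0 ± 0.08 on the log2 scale. For these genes bre1Δ lay below both set2Δ and WT. In SPI1 and YGP1 set2Δ was near WT or above it, while in CTT1 and in ALD3 (236 to 267 CPM in set2Δ, 406 to 508 CPM in WT) set2Δ was below WT. Of 33 heat shock proteins and chaperones, 18 were higher and 11 lower. The 2 HSP70 genes with the smallest p-values differed in direction: SSA1, with 57.9% shared windows, had 978, 1165 and 1138 CPM in bre1Δ, against 361, 339 and 358 CPM in set2Δ (1.63 ± 0.07), and SSA4 had 123, 136 and 118 CPM in bre1Δ, against 418, 416 and 441 CPM in set2Δ (-1.76 ± 0.09). In WT SSA1 had 2882 to 3390 CPM and SSA4 1124 to 1471 CPM, above both deletions.

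Storage carbohydrate genes were 10 lower and 7 higher of 21. PIG2, a regulator of glycogen synthesis, had 241, 238 and 244 CPM in bre1Δ, against 839, 803 and 861 CPM in set2Δ and 597 to 621 CPM in WT (-1.79 ± 0.05), and TPS1, the trehalose phosphate synthase, fell by 0.72 ± 0.06. Of 18 stationary phase and desiccation genes, 9 were higher and 7 lower: SPG4 and SPG5 rose by 1.31 ± 0.08 and 1.30 ± 0.06, and the hydrophilin SIP18 fell, with 1813, 1845 and 1736 CPM in bre1Δ, against 5582, 5292 and 6153 CPM in set2Δ. Oxidative stress defence had 19 of 35 genes lower and 10 higher. Among lifespan signalling genes 14 of 29 were lower and 9 higher. IRA1, an inhibitor of Ras, had 837, 854 and 832 CPM in bre1Δ, against 1596, 1517 and 1670 CPM in set2Δ (-0.92 ± 0.06). RIM15, a kinase needed for entry into stationary phase, had 98.8, 96.3 and 87.1 CPM in bre1Δ, against 153, 151 and 154 CPM in set2Δ and 92.2 to 99.6 CPM in WT (-0.70 ± 0.05).

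Iron uptake genes were lower in bre1Δ in 19 of 28 cases, 6 of them at least 2-fold, and higher in 5, with a median of -0.58. FRE2, a ferric reductase, had 22, 21.6 and 21.8 CPM in bre1Δ, against 68.8, 79.1 and 76.1 CPM in set2Δ and 21.3 to 24.8 CPM in WT (-1.78 ± 0.09). SMF3 and FTH1, transporters that release iron from the vacuole, and ARN1, a siderophore transporter, fell by 1.45 ± 0.06, 1.01 ± 0.05 and 1.29 ± 0.05 on the log2 scale. Multidrug and weak acid resistance genes were lower in 15 of 20 cases, 4 of them at least 2-fold, and higher in 4, 3 of them at least 2-fold. PDR1, an activator of genes of this class, was 1 of the 4 higher members. It had 166, 159 and 163 CPM in bre1Δ, against 80.9, 80.6 and 78.2 CPM in set2Δ (1.03 ± 0.05). ZAP1, the zinc-responsive activator, had 52.2, 53.0 and 59.6 CPM in bre1Δ, against 195, 179 and 184 CPM in set2Δ and 56.4 to 62.8 CPM in WT (-1.76 ± 0.06). The zinc transporters beside it were split, 6 of 12 genes of that list being higher and 4 lower.

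Genes for nitrogen and amino acids contained some of the clearest single differences. Of 64 amino acid biosynthesis genes, 33 were higher and 15 lower, with a median of 0.26. ARO10 and ARO9, which break down aromatic amino acids, had 886, 798 and 844 CPM and 182, 163 and 154 CPM in bre1Δ, against 108, 107 and 105 CPM and 24.7, 30.2 and 25.5 CPM in set2Δ (2.98 ± 0.07 and 2.63 ± 0.07). WT, with 931 to 1177 CPM of ARO10 and 154 to 162 CPM of ARO9, was near bre1Δ for both. PUT1, the proline oxidase, had 1723, 1620 and 1558 CPM in bre1Δ, against 313, 285 and 296 CPM in set2Δ and 843 to 1094 CPM in WT (2.45 ± 0.08). DAL80, a repressor of nitrogen catabolism, had 14.0, 10.4 and 9.63 CPM in bre1Δ, against 0.337, 0.142 and 0.0533 CPM (6, 3 and 1 reads) in set2Δ and 2.27 to 3.85 CPM in WT (5.96 ± 0.34). The list of 25 nitrogen catabolite repressed genes and regulators was even, 12 higher and 10 lower. In purine synthesis ADE17 had 249, 343 and 354 CPM in bre1Δ, against 64, 66.4 and 59.0 CPM in set2Δ (2.32 ± 0.10). BNA4, of the route from tryptophan to NAD, had 116, 133 and 140 CPM in bre1Δ, against 20.6, 23.1 and 19.7 CPM in set2Δ and 39.1 to 46.0 CPM in WT (2.62 ± 0.09).

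Few genes that work with the deleted enzymes differed by as much as 2-fold. In the list of 13 H2B ubiquitination and Paf1 complex genes, BRE1 included, 4 were higher and 7 lower. RAD6, the conjugating enzyme, had 42.1, 50.3 and 52.0 CPM in bre1Δ, against 59.8, 55.3 and 56.7 CPM in set2Δ (-0.25 ± 0.07), and LGE1, the partner of Bre1, had 172, 183 and 185 CPM in bre1Δ, against 257, 245 and 221 CPM in set2Δ (-0.42 ± 0.07). CDC73 and CTR9, of the Paf1 elongation complex, rose by 0.70 ± 0.05 and 0.53 ± 0.05. Of 10 genes of COMPASS, DOT1 and the demethylase gene JHD2, 3 were higher and 4 lower, none 2-fold, with SET1 at -0.19 ± 0.06, DOT1 at -0.52 ± 0.07 and the subunit gene SHG1 at -0.96 ± 0.09. The H3K36 and Rpd3S list had 11 of 17 genes lower and 5 higher. RCO1, a subunit found in Rpd3S, had 59.0, 55.7 and 55.9 CPM in bre1Δ, against 105, 105 and 109 CPM in set2Δ and 44.9 to 49.3 CPM in WT (-0.90 ± 0.06). SPT6, a histone chaperone of elongation, had 428, 386 and 384 CPM in bre1Δ, against 146, 149 and 170 CPM in set2Δ and 265 to 279 CPM in WT (1.37 ± 0.06). Besides BRE1 and SET2 themselves, SPT6 was the only gene of these 3 lists that differed by at least 2-fold and passed the threshold.

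Of 11 histone genes, 8 were higher in bre1Δ and 3 lower, none 2-fold. The widest gaps were in CSE4, the centromeric H3 (0.95 ± 0.08), HHF2 (0.88 ± 0.06), HTA1 (0.81 ± 0.05) and HTZ1, the H2A variant (-0.54 ± 0.06). For HTA1 the values were 406, 443 and 441 CPM in bre1Δ, against 242, 238 and 257 CPM in set2Δ and 795 to 867 CPM in WT. Of 8 genes described as having promoters inside the gene, 5 were lower in bre1Δ, 1 was higher (DCP2, 0.63 ± 0.05) and 2 did not pass, with a median of -0.43. FLO8, given above, was the lowest of them (-1.65). SPB4 had 118, 106 and 118 CPM in bre1Δ, against 254, 250 and 268 CPM in set2Δ and 50.9 to 57.4 CPM in WT (-1.18 ± 0.06). STE11 had 139, 139 and 143 CPM in bre1Δ, against 247 to 271 CPM in set2Δ and 136 to 158 CPM in WT (-0.88 ± 0.05). Gene counts cannot separate full-length from shorter transcripts.

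Small nucleolar RNAs, which guide the modification of ribosomal RNA and mostly lack poly(A) tails, had 30 of 74 tested genes lower in bre1Δ, 20 of them at least 2-fold, and 15 higher. Among genes of at least 10 CPM 15 were lower, and none of the 15 higher ones reached that level. SNR9 had 23.5, 18 and 16.3 CPM in bre1Δ, against 78.2, 85.7 and 80.0 CPM in set2Δ and at least 27.5 CPM in WT (-2.09 ± 0.10). Annotated RNAs without a poly(A) tail took 0.104% ± 0.00705 of the counts in bre1Δ, 0.188% ± 0.0153 in set2Δ and 0.0653% ± 0.00250 in WT (SD, n = 3 each), and their part in these differences was not tested. Of 44 tested Ty retrotransposon genes, most of them near-identical copies, 12 were higher and 12 lower. In the cell wall list of 37 genes 17 were higher and 13 lower: CHS1, a chitin synthase, had 565, 535 and 692 CPM in bre1Δ, against 108, 111 and 119 CPM in set2Δ and 209 to 277 CPM in WT (2.41 ± 0.09), and CWP1, a mannoprotein, had 48.9, 52.6 and 42.6 CPM in bre1Δ, against 246, 299 and 238 CPM in set2Δ and 275 to 339 CPM in WT (-2.44 ± 0.10). Of 19 pheromone response genes 11 were lower and 3 higher, with the activator STE12 at -1.17 ± 0.06 and FAR1, which arrests the cycle, at -1.67 ± 0.08.

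The remaining lists had members in both directions. Of 31 tested autophagy genes 15 were higher and 8 lower, and of 13 vacuolar hydrolases and their inhibitor 7 were higher and 4 lower. In that list CPS1, a carboxypeptidase, had 861, 866 and 866 CPM in bre1Δ, against 177, 163 and 172 CPM in set2Δ and 591 to 748 CPM in WT (2.34 ± 0.07), and the protease PRB1 rose by 1.77 ± 0.07. Ergosterol synthesis had 15 of 27 genes higher and 7 lower, with ERG6 at 114, 128 and 127 CPM in bre1Δ, against 39.0, 39.5 and 36.1 CPM in set2Δ and 177 to 232 CPM in WT (1.69 ± 0.08). Fatty acid and phospholipid synthesis had 10 of 27 genes higher and 9 lower, and DNA replication 12 of 31 higher and 10 lower. RNR4, a subunit of ribonucleotide reductase, had 1723, 1713 and 1789 CPM in bre1Δ, against 546, 501 and 568 CPM in set2Δ and 1399 to 1786 CPM in WT (1.69 ± 0.07), whereas SLD3, an initiation factor of replication, had 65.6, 56.4 and 59.5 CPM in bre1Δ, against 170, 168 and 158 CPM in set2Δ and 58.5 to 69.9 CPM in WT (-1.45 ± 0.07). Of 15 cyclins and regulators of quiescence entry 5 were higher and 5 lower, and without replicate 1 of bre1Δ 3 were lower. Galactose and maltose use (7 higher and 4 lower of 13), sulfate assimilation and methionine (14 and 12 of 31), purine and pyrimidine synthesis (12 and 7 of 25), sirtuins and NAD salvage (13 and 10 of 24) and oxygen-regulated genes (6 and 10 of 19) were split as well.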

How the data were processed

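Polyadenylated RNA was sequenced in 18 libraries on an Illumina NovaSeq, per the labels' protocols. The submitters' processing notes name FastQC 0.11.8, cutadapt 2.6, STAR 2.7.0b, HTSeq 2.0.2, R 4.2.0 with DESeq2 1.36.0, and the sacCer3 build, while the strand setting and annotation are not given in the sources used here. The authors deposited whole-number read counts per gene, without normalization. The deposited FPKM values are counts scaled by gene length and library size, whose gene lengths lay within 2% of the RefSeq R64 span for 99.7% of 6030 genes, and they served in alternatives only. Of 6837 identifiers, 806 matched no entry of that annotation, and 4 lines with emptied names were left out.

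Genes were tested with edgeR 4.0.16 in R 4.3.3: filterByExpr (6320 tested, 517 not), TMM scaling, 6 group means, and two-sided quasi-likelihood F tests of bre1Δ over set2Δ, with Benjamini-Hochberg adjustment over all genes tested and a threshold of 0.05. The biological coefficient of variation was 6.22%. Library totals of the groups compared were 14117059 to 23335510 counts. Alternatives used DESeq2 1.42.0 and limma 3.58.1, and the pipeline was tested on simulated data. Shares of windows found elsewhere in the genome are over all 50-base windows of a gene. Permutation tests listed every split of the 6 libraries, counting intervals used SciPy 1.17.1 (exact binomial), and figures matplotlib 3.10.9.

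The 6 libraries compared were chosen by their labels. The 54 gene lists were written with earlier results of these data known, so list counts are descriptions. Genes were named by rule: the deleted genes, their neighbours and the auxotrophic markers; the 12 largest rises and the 12 largest falls past the threshold with at least 20 CPM in the higher group and no overlap between groups; for each list, the 4 genes with the lowest p; and, for lists no longer than 15 genes, potentially every gene. Members that went against or stood apart from their list, THI7, and ZIP1 were named after their values were seen. One gene of the lists is not reported here.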

Additional observations from a re-analysis of the deposited data

How the results depend on the processing

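The counts of genes past the threshold stayed within 1.5 times the reported ones (5015 in all, 2487 higher in bre1Δ and 2528 lower) under all 18 alternatives. Scaling by library size gave 5014 calls, 2264 higher and 2750 lower, and shifted the genome-wide median to -0.08 (log2); upper quartile scaling gave 2295 higher and 2735 lower, and DESeq2 2500 and 2480. Limma on log2(FPKM + 1) called 4947 genes, and the test without a filter called 5063 of 6833. Among genes of at least 10 CPM, 464 were at least 2-fold higher and 421 at least 2-fold lower. Leaving out 1 library at a time gave 4818 to 4913 calls and 1288 to 1337 at least 2-fold apart.

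The replicate number did not pair the samples: deviations of bre1Δ and set2Δ libraries with the same number had correlations of -0.164, 0.0139 and -0.0244 across genes. With the replicate block, 5005 genes were called over all 18 libraries (2483 higher, 2522 lower) and 4842 on the 6 libraries compared (2387 higher, 2455 lower), against 4949 there without it.

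Of the 165 genes named that passed the threshold, 161 kept their call and direction under every alternative; ASH1, PRY3, RPN11 and RPN13 lost it when 1 library was left out. RPL23A, ADR1 and CAT8 passed as lower with library size (-0.23, -0.15 and -0.19) and with upper quartile scaling. RPS9A, not past the threshold at 0.03, stood at -0.04 with library size and in both limma fits, at -0.03 with upper quartile scaling and between -0.04 and 0.10 with 1 library left out. STE3, not past it at -0.03, ran between -0.09 and 0.01 with 1 library left out. The cause was not tested. List counts moved by more than 1.5 times in 18 of 1944 cases. Among genes of at least 10 CPM, higher members were 2 of the spore genes, 1 a-specific gene, 3 oxygen-regulated genes and 1 pheromone response gene; with library size scaling 3 zinc genes were higher, and with limma at a pseudocount of 0.1 6 Ty genes. Without replicate 3 of set2Δ 2 proteasome genes were lower. Depth limits genes of few counts: 517 genes fell under the filter and were not tested.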

Other observations

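Identifiers of reading frames that the R64 annotation does not hold were mostly lower in bre1Δ where they passed the threshold. Of 316 tested, 169 were lower in bre1Δ, 132 of them at least 2-fold, and 54 were higher, with a median log2 fold change of -0.80 against 0.02 for 5824 protein-coding genes. Their median over WT was 0.61 for bre1Δ and 1.24 for set2Δ, in comparisons that share the WT libraries. Their overlap with annotated genes was not read and the strand setting of the counting is not stated, so their reads may belong to other genes. They took 0.171%, 0.142% and 0.145% of the counts in bre1Δ, against 0.255%, 0.276% and 0.271% in set2Δ and 0.102% to 0.114% in WT. By gene length, the median log2 fold change of protein-coding genes lay between -0.09 and 0.07 in 7 length classes, and Spearman's rho was 0.008 across 5824 genes, which are not independent replicates.

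Some genes outside the larger groups stood apart. SUC2, the invertase gene, had 65.9, 75.3 and 78.8 CPM in bre1Δ and 75.6, 77.4 and 79.5 CPM in set2Δ, with 438, 575 and 599 CPM in WT, and the deletions did not differ past the threshold (-0.08 ± 0.09, edgeR adjusted p = 0.421). MAL12, a maltase gene with 83.6% shared windows, had 5.36, 6.41 and 6.93 CPM in bre1Δ, against 3.48, 3.37 and 2.66 CPM in set2Δ and 36.6 to 45.1 CPM in WT. ATG5, of the conjugation machinery of autophagy, had 194, 175 and 212 CPM in bre1Δ, against 45.2, 44.8 and 51.6 CPM in set2Δ and 89.2 to 110 CPM in WT (2.04 ± 0.08), while the autophagy list had a median of 0.14. TRP5, the tryptophan synthase gene, had 270, 298 and 285 CPM in bre1Δ, against 80.9, 79.4 and 77.9 CPM in set2Δ and 179 to 186 CPM in WT (1.84 ± 0.05). ENP2, a ribosome biogenesis gene, had 51.9, 56.7 and 62.7 CPM in bre1Δ, against 146, 140 and 145 CPM in set2Δ and 30.3 to 34.9 CPM in WT (-1.33 ± 0.07), with both deletions above WT.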
